A study of Mus musculus with 74 samples.

Results

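These results describe 5690 long-range promoter contacts of a mouse blood progenitor line that were listed in progenitors and missing from both lists made after erythropoietin. A contact is a pair of HindIII fragments in a promoter capture Hi-C list, and the captured fragment is the one that carries the bait. The members were chosen by 4 conditions. Both fragments lay on 1 chromosome with 50 kb to 1 Mb between their midpoints, and the other end was captured in none of the 3 lists. The pair scored 7 or more in the progenitor (HPC) list and was in neither the Ery Luc nor the Ery shStag2 list. They were 5690 of 28380 HPC pairs that met the first 3 conditions, or 20.0% (exact binomial 95% interval 19.6% to 20.5%). The HPC list held 112183 pairs, the Ery Luc list 123042 and the Ery shStag2 list 130734.

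HPC-7 is a mouse line with features of blood stem and progenitor cells, kept in stem cell factor (SCF). The HPC list came from cells that carried no hairpin and grew in 100 ng/ul SCF. The Ery Luc and Ery shStag2 lists came from cells with an inducible short hairpin RNA against luciferase (the control) or Stag2, a cohesin subunit. Hairpins were induced with doxycycline for 72 h, with 73 h given for 1 Ery Luc library, and the cells grew in 20 ng/ul SCF with 4 U/l erythropoietin (EPO). The labels give no duration of EPO for these libraries. Stage, transduction, doxycycline and SCF dose thus cannot be told apart between the HPC list and the other lists. No list came from hairpin-carrying progenitors. Each list is the authors' pool of 2 libraries, with no value for a single library, so no difference between lists has a replicate error and no test was made. Intervals are exact binomial and cover counting error only. Contacts of 1 captured fragment share a bait and are not independent.

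Promoter capture Hi-C joins DNA ends that lie near each other in the nucleus and enriches the joined pieces that hold a promoter. Enhancers far along the chromosome can be brought to a promoter by loops that cohesin forms. Progenitors of the myeloid lineages hold the choice between erythroid, megakaryocyte, mast cell and granulocyte fates, and EPO drives the erythroid one through its receptor. The score is the authors', 5 or more for all listed pairs. A missing pair is 1 that did not reach that level, which is not the same as no contact.

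The choice of members used the scores, so the counts below describe and do not test. The largest group of absent contacts at a single promoter belonged to Hgf, hepatocyte growth factor. It was followed, among promoters that kept no contact in both erythroid lists, by Selp, which encodes the adhesion molecule P-selectin. Il1rl1, the receptor for interleukin-33 on mast cells, and Cpa3, a protease of mast cell granules, lost most or all of their contacts too. Their promoters are printed here because they are described first below, and these 4 fragments hold a small part of all members. Each sequence is RefSeq's (GRCm38.p6), runs 5′ to 3′ along the gene and covers 250 bases before to 50 bases after the start site. Capitals mark matches to the motifs described at the end of these results. The windows are chr5:16553651-16553950 (plus strand) for Hgf, chr1:164115014-164115313 (plus) for Selp, chr1:40429320-40429619 (plus) for Il1rl1 and chr3:20242132-20242431 (minus) for Cpa3.
Hgf: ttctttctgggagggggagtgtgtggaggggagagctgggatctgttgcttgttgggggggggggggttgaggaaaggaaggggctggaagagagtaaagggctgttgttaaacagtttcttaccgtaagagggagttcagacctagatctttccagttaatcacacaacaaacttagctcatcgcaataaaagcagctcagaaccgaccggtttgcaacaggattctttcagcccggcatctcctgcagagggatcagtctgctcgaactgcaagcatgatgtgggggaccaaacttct
Selp: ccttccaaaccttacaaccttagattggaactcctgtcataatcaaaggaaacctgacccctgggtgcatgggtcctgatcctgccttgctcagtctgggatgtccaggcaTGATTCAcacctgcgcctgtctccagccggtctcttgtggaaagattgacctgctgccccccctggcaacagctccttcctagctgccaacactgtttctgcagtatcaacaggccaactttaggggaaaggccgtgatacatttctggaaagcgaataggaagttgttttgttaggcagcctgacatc
Il1rl1: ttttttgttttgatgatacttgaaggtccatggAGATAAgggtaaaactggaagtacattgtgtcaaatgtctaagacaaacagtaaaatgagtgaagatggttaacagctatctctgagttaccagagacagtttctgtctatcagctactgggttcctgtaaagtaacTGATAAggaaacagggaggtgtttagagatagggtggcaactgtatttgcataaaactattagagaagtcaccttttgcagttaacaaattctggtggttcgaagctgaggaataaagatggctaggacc
Cpa3: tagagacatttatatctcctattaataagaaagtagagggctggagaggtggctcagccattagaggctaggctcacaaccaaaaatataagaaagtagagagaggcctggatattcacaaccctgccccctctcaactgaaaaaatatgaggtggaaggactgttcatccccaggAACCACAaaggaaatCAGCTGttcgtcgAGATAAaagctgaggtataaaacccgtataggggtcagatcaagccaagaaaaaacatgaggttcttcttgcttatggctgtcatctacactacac

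At the Hgf promoter nearly every listed contact was missing after EPO. The captured fragment lies at chr5:16551190-16554537 (mm10) and holds 2 annotated starts of the gene. It had 55 distal contacts of any score in HPC, 0 in Ery Luc and 2 in Ery shStag2. Of its 21 distal HPC contacts at 7 or more, 20 were members, or 95.2%. Their HPC scores ran from 7.12 to 12.86 with a median of 8.71, and 18 of the 20 had no other listed contact within 10 kb of their end in an erythroid list. The members fell in separate stretches on both sides of the promoter. On the side away from the gene body, 3 members ended 230 to 236 kb away inside Cacna2d1, a calcium channel subunit gene. The strongest of them, at chr5:16322760-16323850, scored 12.86. On the gene's side, 17 members ended 66.9 to 310 kb away. One of these lay inside Hgf itself, 7 over no annotated protein-coding gene, and 9 over the predicted gene Gm28710 at 240 to 310 kb. The 1 pair that stayed was also inside Cacna2d1, at chr5:16307164-16316139. It scored 13.10 in HPC, was not listed in Ery Luc and scored 5.36 in Ery shStag2.

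Contacts of the Hgf fragment shorter than 50 kb, which the choice of members did not use, were missing as well. There were 11 in HPC and 0 in each erythroid list. The fragment also had 34 distal contacts with a score under 7 in HPC. Whether the fragment was captured as well in the erythroid libraries was not tested, since the lists hold no read depth.

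At Selp the contacts pointed to 1 side only and ran over the neighbouring selectin gene. The captured fragment, chr1:164100267-164119571, had 26 distal contacts in HPC, 1 in Ery Luc and 1 in Ery shStag2. Of 17 at 7 or more in HPC, 15 were members, with scores of 7.01 to 10.06 and a median of 8.22. All 15 ended at lower coordinates, 58.9 to 136 kb away. Of these, 2 lay over Sele (E-selectin, an adhesion molecule of endothelium), 2 over Mettl18, 6 over BC055324 and 5 over no annotated protein-coding gene. The top member, at chr1:163992165-163992760, scored 10.06. Both non-members scored higher in HPC than that. One scored 11.66 in HPC and 5.17 in Ery Luc, and the other 10.16 in HPC and 5.44 in Ery shStag2. Contacts under 50 kb numbered 18 in HPC, 1 in Ery Luc and 1 in Ery shStag2.

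Counted over 1-Mb windows by the captured fragment, the window that holds Selp had 22 members of 29 pairs (75.9%), and the Hgf window 21 of 22 (95.5%). Across the 461 windows with 20 or more pairs the median share was 17.9%, and 7 windows passed 50%. The window of Il1rl1 and Il18rap was another of the 7, with 12 members of 23 pairs.

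Most missing contacts of Il1rl1 ended inside its neighbour Il18rap, which encodes a chain of the interleukin-18 receptor. Its captured fragment, chr1:40426904-40436474, had 19 distal contacts in HPC, 3 in Ery Luc and 5 in Ery shStag2. Of 10 at 7 or more, 8 were members. Of these, 6 ended within Il18rap, 94.7 to 112 kb away, with scores of 7.22 to 9.28, and 4 of those 6 ends were consecutive HindIII fragments. The fragment next to those 4, chr1:40524175-40525825, scored 9.46 in HPC, above all 6, and stayed in Ery Luc at 5.87, so these 4 members had a listed contact within 10 kb after EPO. The other 2 ended at 377 and 380 kb on the opposite side, and the farther one, at chr1:40048894-40054100, had the top score of 13.14. The next listed contact of that stretch behaved differently. At chr1:40037064-40042941 it scored 7.89 in HPC and 8.34 in Ery shStag2, and it was absent from Ery Luc. It had 4 contacts under 50 kb in HPC, 1 in Ery Luc and 0 in Ery shStag2.

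Cpa3 had fewer and weaker contacts, and none stayed at 7 or more. The captured fragment, chr3:20238849-20242546, had 9 distal contacts in HPC, 0 in Ery Luc and 1 in Ery shStag2. Its 3 HPC contacts at 7 or more were all members, at 7, 7.12 and 7.36, and they ended 78.6 to 99.0 kb away. These 3 values sit just above the score limit.

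Slc22a3, which encodes an organic cation transporter, had most of its missing contacts within its own gene. The captured fragment, chr17:12506657-12511517, had 20 distal contacts in HPC, 1 in Ery Luc and 2 in Ery shStag2, and 8 of its 10 at 7 or more were members. Of the 8, 5 ended in the body of Slc22a3, at 56.6 to 86.8 kb and scores of 7.43 to 11.85. Both of its other contacts over Slc22a3 stayed listed in Ery shStag2, at 9.73 in HPC against 5.02 and at 9.11 against 5.18. Another ended in the next gene, Plg (plasminogen), and 1 each in Mas1 and Wtap at 348 and 465 kb on the other side. The 11 contacts under 50 kb in HPC were all unlisted in both erythroid lists. Akap13, a scaffold for protein kinase A, had a similar layout. Its fragment, chr7:75453502-75461481, had 29 distal contacts in HPC, 1 in Ery Luc and 5 in Ery shStag2, and 8 of 9 at 7 or more were members. Of those, 5 ended inside Akap13 at 73.9 to 191 kb, with a top score of 12.61. The other 3 ended over no annotated protein-coding gene on the opposite side, at 54.3 to 73.8 kb. All 9 of its HPC contacts under 50 kb were missing from both erythroid lists.

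Other promoters had contacts to a single distant stretch. The 5 contacts of Ago4, an Argonaute gene, ended in its paralogue Ago3 177 to 203 kb away and were all members, with scores of 7.08 to 11.04. Ago4 had 11 distal contacts in HPC, 0 in Ery Luc and 1 in Ery shStag2. Fgfr1, a fibroblast growth factor receptor whose annotated start or end lies on the fragment, had 6 members of 7. They ended 186 to 247 kb away over no annotated protein-coding gene, and its distal contacts numbered 16 in HPC, 4 in Ery Luc and 0 in Ery shStag2. The adjoining captured fragment, chr8:25509742-25517012, lost a smaller share. It had 10 members of 22, all on the same side, and 5 contacts kept in both erythroid lists. Its distal contacts numbered 41 in HPC and 10 in each erythroid list. Ccl2, a chemokine that attracts monocytes, was named like Fgfr1 by an annotated start or end. It had 5 members of 6, at 135 to 150 kb and scores of 7.1 to 8.54, and its distal contacts numbered 7 in HPC, 0 in Ery Luc and 1 in Ery shStag2. Gnas, which encodes the stimulatory G protein subunit, had 5 members of 6 at 593 to 640 kb. Its distal contacts numbered 15 in HPC, 3 in Ery Luc and 10 in Ery shStag2, so most of the difference from HPC was in the control list.

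**Figure D1:**
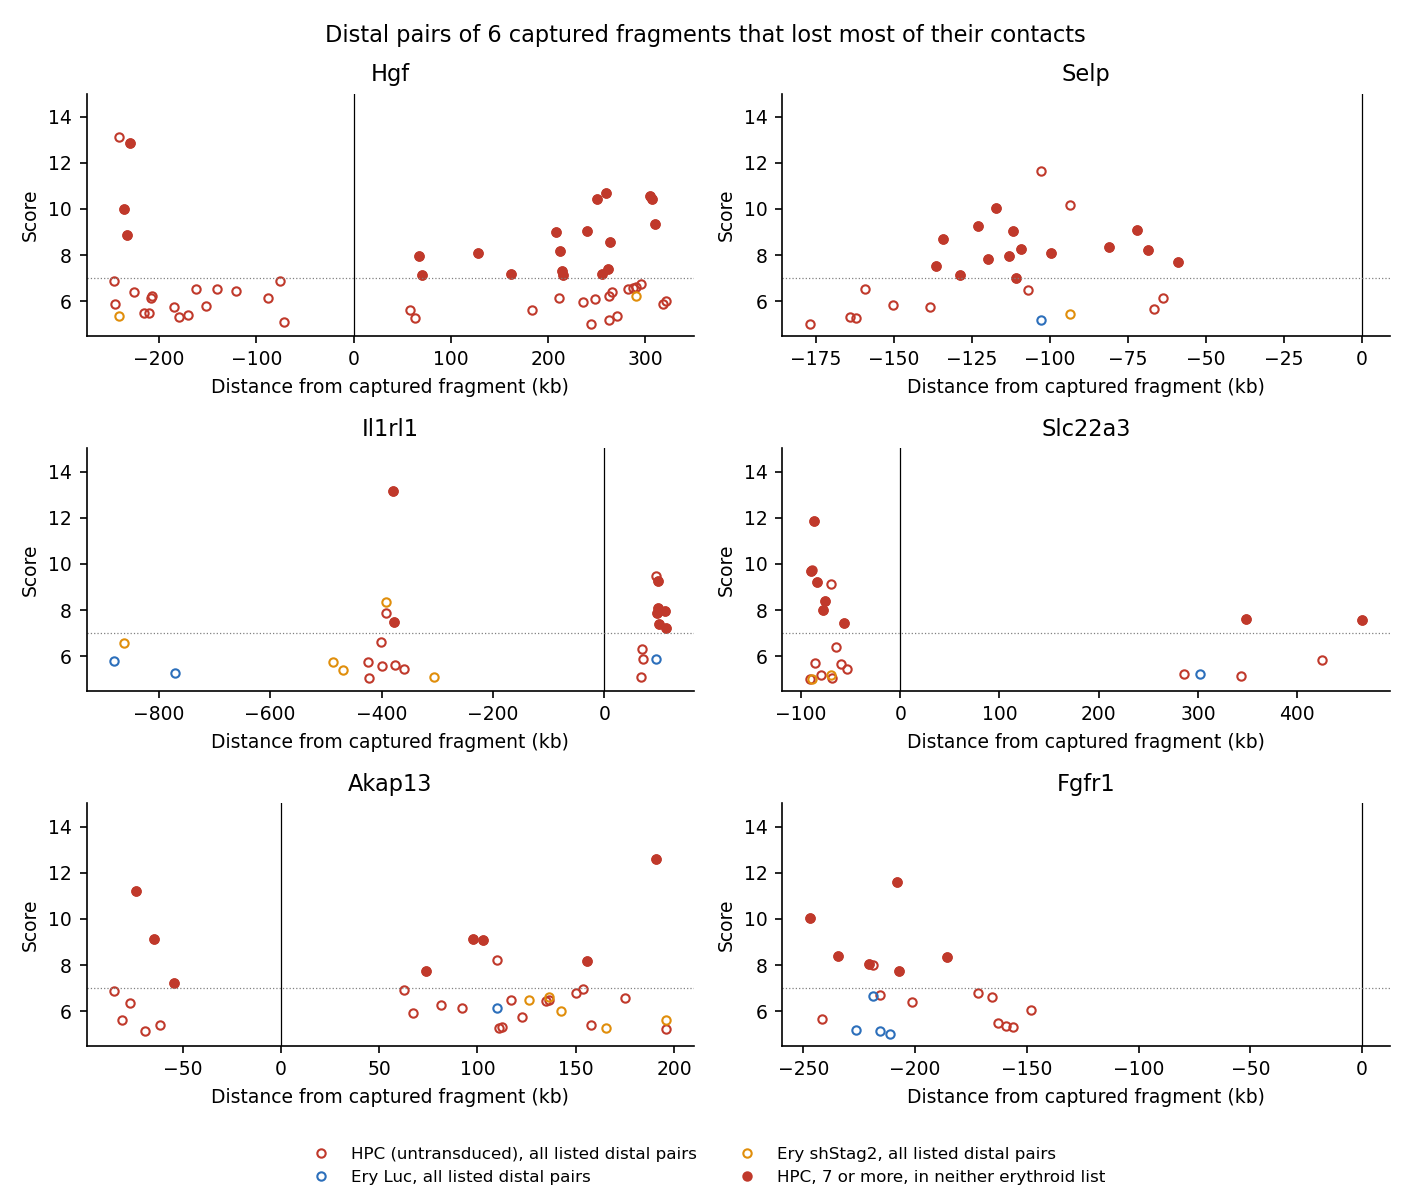
Distal contacts of 6 captured fragments by distance from the fragment (x, kb, higher coordinates positive) and score (y). Filled red points are the members, open points all other listed contacts of HPC (red), Ery Luc (blue) and Ery shStag2 (orange), and the dotted line is the score of 7. Hgf shows 55 red points against 0 blue and 2 orange.

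Except for Cpa3, with fewer than 5 contacts, these promoters belonged to a small set. Of the 1892 captured fragments with 5 or more qualifying HPC contacts, 41 had at least 80% of them as members (2.17% of the fragments, the background of that count), and at 7 fragments all were members. The same rule turned round gave 12 of 1793 fragments for contacts found only in Ery Luc and 27 of 1977 for those found only in Ery shStag2. All contacts were absent from both other lists at 3 Ery Luc and 7 Ery shStag2 fragments. The highest number on 1 fragment was 20 in HPC (Hgf), 19 in Ery Luc and 16 in Ery shStag2. Of the 41, 24 held an annotated gene start, 8 were named by a start or end, and 9 had no protein-coding gene by either rule. They carried 224 members. Their distal contacts of any score summed to 642 in HPC, 133 in Ery Luc and 180 in Ery shStag2. Per fragment the HPC numbers had a lowest value of 7, a median of 15 and a highest of 55. In Ery Luc these were 0, 3 and 11. Ery shStag2 gave 0, 4 and 15. All 41 had fewer distal contacts in each erythroid list than in HPC, a direction that the choice of the fragments favours.

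**Figure D2:**
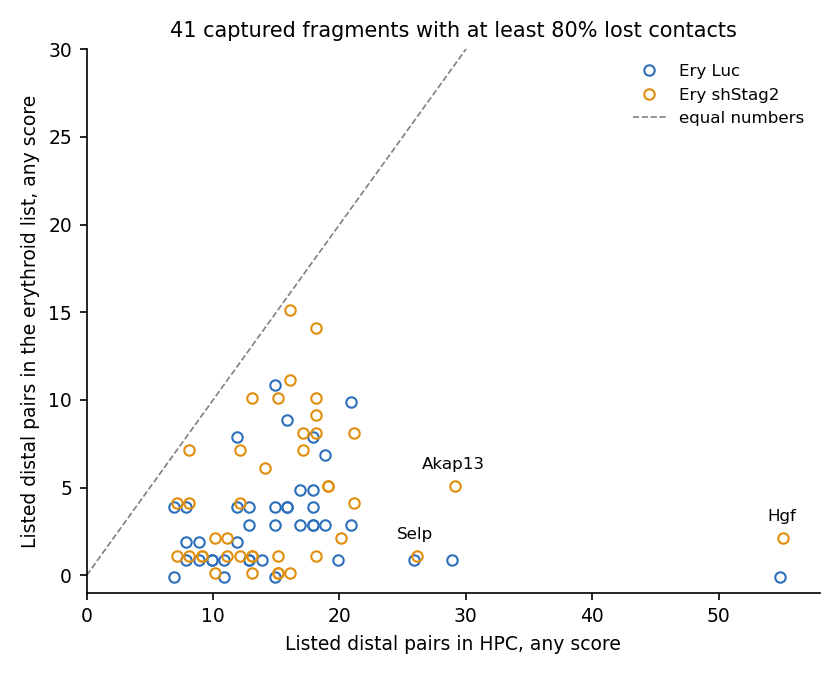
Each of the 41 captured fragments with at least 80% members, by its listed distal contacts of any score in HPC (x) and in Ery Luc (blue) or Ery shStag2 (orange) (y), with points set slightly apart. All points lie under the dashed line of equal numbers, with Hgf at 55 against 0 and 2.

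The short contacts of the 41 fragments were not used in choosing them, although the fragments were chosen for many strong contacts in HPC. Contacts under 50 kb summed to 169 in HPC, 33 in Ery Luc (19.5% of the HPC sum) and 38 in Ery shStag2 (22.5%). None of the 41 had more of them in an erythroid list than in HPC. Over all 1892 fragments with 5 or more contacts the sums were 5682, 2687 (47.3%) and 2589 (45.6%). The 3 lists together held 21022 captured fragments, all of which had some listed contact in HPC or an erythroid list. Over these the sums were 19667 in HPC, 11345 in Ery Luc (57.7%) and 10203 in Ery shStag2 (51.9%). At the 564 fragments with no member the erythroid sums came to 64.9% and 62.2% of the HPC sum of 1574.

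Most members did not come from such promoters. In all, 5881 captured fragments had a qualifying HPC contact and 3248 of them (55.2%, the background of that count) had a member. Of the 3248, 2033 had 1, 660 had 2 and 555 had 3 or more. Only 14 had 10 or more, and these held 176 members. In Ery Luc and Ery shStag2, contacts found in that list alone reached 10 or more on 4 and 5 fragments. Of the 5346 named genes with a qualifying contact, 2903 (54.3%) had a member, 881 had members only, and 2443 had none. The median gene had 11.1% of its contacts as members.

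After Hgf, the fragments with the most members were mostly rich in contacts and kept many of them. Cdk15, a cyclin-dependent kinase gene at chr1:59249398-59257676, had 18 members of 54, and its distal contacts numbered 70 in HPC, 40 in Ery Luc and 27 in Ery shStag2. Of its members, 16 ended on 1 side at 164 to 294 kb, 7 of them over Gm973, with a top score of 12.81. A fragment at chr10:111500555-111502178, with no protein-coding start or end, had 16 of 76. Selp, with 15 of 17, was the next. Another unnamed fragment at chr15:58842671-58848067 had 14 of 31, and its distal contacts numbered 57 in HPC, 22 in Ery Luc and 15 in Ery shStag2. The fragment of Slc20a2 and Smim19, a phosphate transporter gene and its neighbour, had 12 of 34. An unnamed one at chr17:83268988-83273010 had 11 of 30. The fragments of Lsr and Usf2 (10 of 55), Prelid3b (10 of 49), Vapa (10 of 19), Zbtb32 (10 of 27) and Ube2b (10 of 42) completed the 12. Those with 10 members were ordered by summed score, and 2 more fragments had 10, one unnamed at chr8:25509742-25517012 (10 of 22) and that of Tmbim1 (10 of 33). Vapa, which encodes a membrane contact protein of the endoplasmic reticulum, and Hgf and Selp were the 3 of the 12 with more than 50% members. At Lsr and Usf2 17 further contacts were kept in Ery shStag2 alone and 5 in Ery Luc alone.

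**Figure D3:**
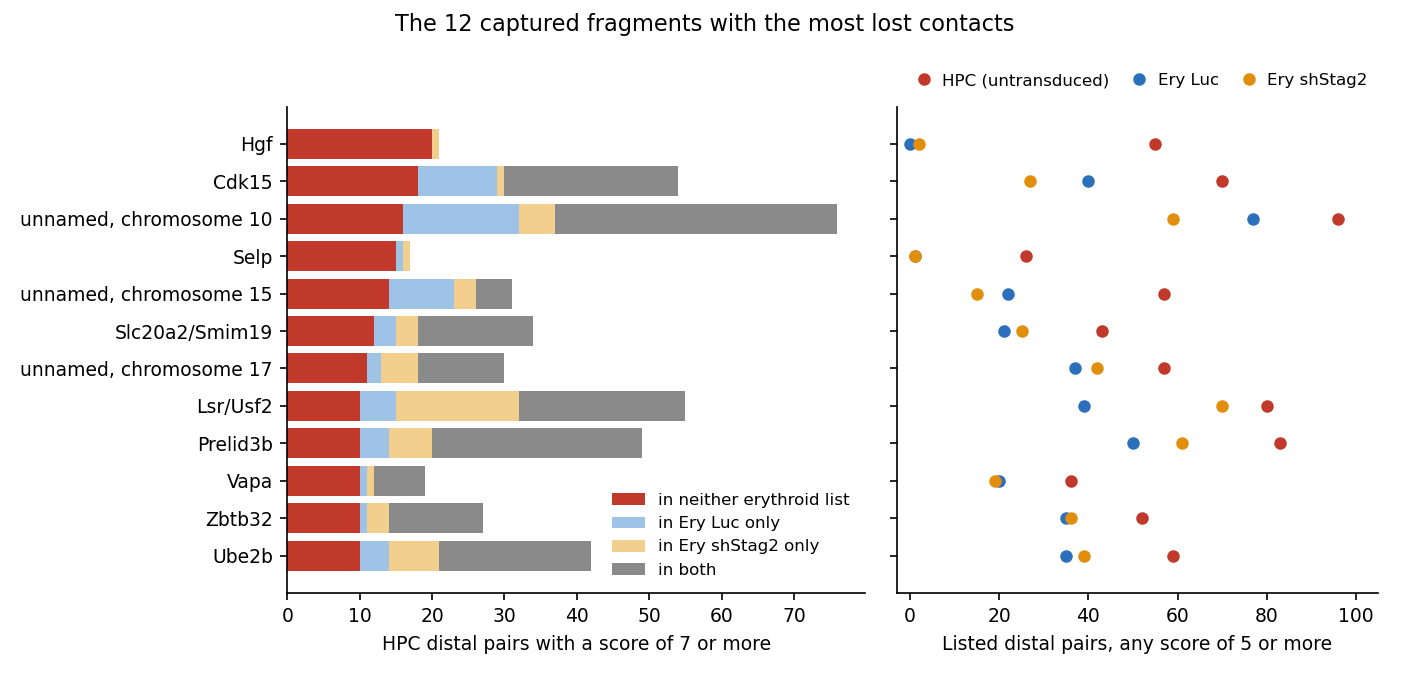
Left, HPC distal contacts with a score of 7 or more of the 12 captured fragments with the most members, split by where else they were listed. Right, listed distal contacts of any score in each list. Hgf and Selp are almost all red and drop to at most 2 listed contacts, while the other fragments keep 15 or more in each erythroid list.

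Members of high score were few. The member scores had a median of 7.84, an upper quartile of 8.66 and a maximum of 16.43, against a median of 9.89 for the 15682 contacts listed in all 3 lists. Members under 8 numbered 3199 (56.2%), those of 10 or more 440 (7.73%), and those of 15 or more 6. The top member, at 16.43, joined Zfp326, a zinc finger gene, to a fragment 467 kb away over no annotated protein-coding gene. Ruvbl1, an ATPase of chromatin remodelling complexes, followed at 16.00 with an end in Rpn1 368 kb away. Between them stood a fragment on chromosome 12 with no named gene, whose contact of 16.14 ended in Ston2. Gsg1 scored 15.59, an unnamed fragment with an end in Nlrp6 15.47, and an unnamed fragment on chromosome 2 15.12. Dusp6, a phosphatase that acts on ERK kinases, scored 14.78 with an end in Poc1b 68.8 kb away. Nck1, an adaptor of tyrosine kinase signals, scored 14.61 with an end in Pccb at 471 kb. Ddr1, a collagen receptor, scored 14.60 with an end in Atat1 at 204 kb. Each of these had at least 2 other listed contacts within 10 kb of the same end, summed over both erythroid lists. For these the missing item was the exact fragment, not the neighbourhood.

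The same check over all members set exact loss apart from loss of the stretch. Of the 5690, 3981 (70.0%) had a listed contact of the same captured fragment within 10 kb of the missing end in an erythroid list, and 1709 had none. Among contacts kept in both lists, 96.8% had such a neighbour. Within 25 kb the shares were 84.8% and 99.4%. In the HPC list itself, 74.9% of members and 94.7% of kept contacts had a neighbour within 10 kb, so members were the more isolated in progenitors already. Another member lay within 10 kb for 22.0% of members.

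The share absent depended on the score and was not peculiar to the progenitor list. Of HPC distal contacts at 7 to 8, 33.8% were members, at 8 to 10 21.4%, at 10 to 15 6.08%, and at 15 to 20 0.391% (6 of 1533). Of 659 at 20 or more there were 0, with an upper bound of 0.558%. Contacts of 7 or more in Ery Luc were absent from both other lists in 18.2% (4941 of 27203) and those in Ery shStag2 in 22.8% (6840 of 30046). The HPC share of 20% (5690 of 28380, the background against which the members of any gene set are read) lay between the values of those lists. Of the HPC contacts, 15682 (55.3%) were listed in both erythroid lists, 3554 (12.5%) in Ery Luc only and 3454 (12.2%) in Ery shStag2 only.

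The lists differed more in how the share moved with distance. In HPC it was 21.5% at 50 to 100 kb, 18.5% at 100 to 200 kb, 18.9% at 200 to 300 kb, 21.4% at 300 to 500 kb and 25.2% beyond. In Ery Luc it ran from 10.3% in the shortest class to 37.3% in the longest, and in Ery shStag2 from 7.37% to 45.4%. Contacts listed in HPC alone were thus spread over short and long distances, and the share of erythroid contacts listed in 1 list alone was highest at long ones.

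**Figure D4:**
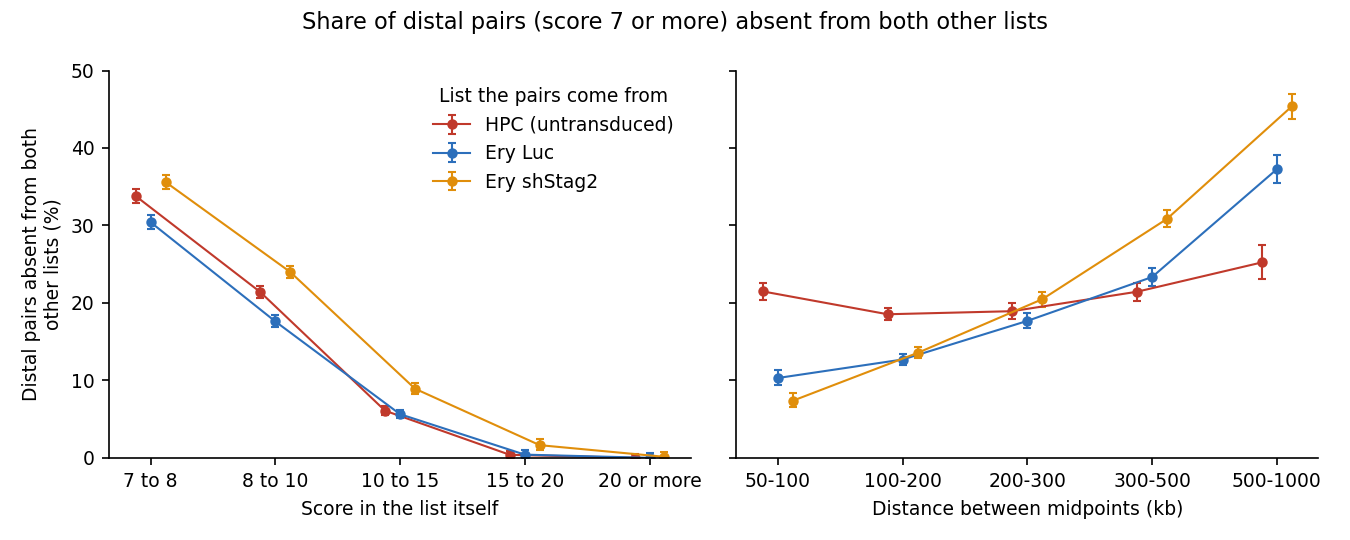
Share of distal contacts of 7 or more (y, %) that were absent from both other lists, by score (left) and by distance between midpoints in kb (right), for contacts of HPC (red), Ery Luc (blue) and Ery shStag2 (orange), with exact binomial 95% intervals. The score curves fall together towards 0, while the distance curve of HPC stays between 18.5% and 25.2%.

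Members and kept contacts differed little in distance and position over all scores, with exceptions in single score classes. Their median distance was 184 kb (95% interval 179 to 189), against 180 kb (177 to 182) for kept ones. At scores of 10 to 15 members lay farther, at 203 kb (181 to 218) against 175 kb (171 to 179). The 2464 contacts at 7 or more in both erythroid lists and missing from HPC had a median of 268 kb (259 to 278). The other end of a member overlapped a protein-coding gene in 65.3% (64.1% to 66.6%), that of a kept contact in 62.1% (61.3% to 62.9%). At scores of 7 to 8 the values were 65.1% and 64.2%, with intervals that overlap. At the same scores 0.813% of members' ends (0.532% to 1.19%) and 1.83% of kept ends (1.40% to 2.35%) held an annotated gene start. The end lay in the gene of the captured promoter in 4.09% of members and 3.66% of kept contacts. Other ends of members were shorter, with a median of 2232 bp against 2531 bp, and at scores of 7 to 8 of 2275 bp against 2704 bp. Ends lay upstream of the promoter in 50.0% of members and 50.9% of kept contacts.

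The captured fragments of members were mostly still listed after EPO, and their other ends less so. For 97.3% of members the captured fragment had some listed contact in Ery Luc, and for 97.9% in Ery shStag2. The other end was listed with another captured fragment for 55.9% of members in HPC, 48.6% in Ery Luc and 47.5% in Ery shStag2. For kept contacts the shares were 72.3%, 72.2% and 73.6%. Members had 5391 different other ends, of which 5115 were met by 1 captured fragment, 255 by 2, 19 by 3 and 2 by 4. One of the last was chr4:155947515-155955141 in Ube2j2, a ubiquitin-conjugating enzyme gene. It met the fragments of Agrn, Cptp with Ints11, Tas1r3 and Tnfrsf18 at scores of 7 to 9.69, and none of its HPC contacts at 7 or more was kept in both lists. The other was chr17:56187300-56192683 in Dpp9, met by Lrg1, Plin5, Ticam1 and an unnamed fragment at 7.06 to 7.91. Ends met by 3 fragments included chr1:74298950-74301273 in Pnkd and Tmbim1, chr11:98715714-98717603 in Med24 and chr2:25042997-25046174 in Pnpla7.

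Gene lists of the blood lineages differed in their share of members, which is to be read against the 20% of all qualifying contacts. Genes were put in the lists with earlier results of these data known, and Hgf and Selp among them, so the shares are descriptions. Mast cell and basophil genes had the highest share, 14 of 22 contacts (63.6%, 40.7% to 82.8%). Of 16 genes 12 were captured, 6 had a qualifying contact and 5 of these a member. Besides Il1rl1 (8 of 10) and Cpa3 (3 of 3) these were Kit, the SCF receptor (1 of 1, 8.16 at 357 kb), Ms4a2, a chain of the IgE receptor (1 of 3), and Prss34, a mast cell and basophil protease (1 of 2). Gata2, a transcription factor of progenitors and mast cells, had 0 of 3. Without Il1rl1 the share was 6 of 12. Kit and Prss34 were not depleted of contacts as a whole. Kit had 6 distal contacts of any score in HPC, 6 in Ery Luc and 13 in Ery shStag2. For Prss34 these were 13, 18 and 22, and for Ms4a2 10, 5 and 7.

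Erythroid genes, counted by their own captured fragments, kept most of their contacts. Of 103 qualifying contacts 5 were members (4.85%, 1.59% to 11.0%), and 7 of 11 genes with a contact had none. Epor, the EPO receptor, had 0 members of 4, with distal contacts of 9 in HPC, 10 in Ery Luc and 11 in Ery shStag2. Car2, a carbonic anhydrase gene, had 1 of 49, and without it the share was 4 of 54 (7.41%). The other members belonged to Trim10 (2 of 14), Tal1, a transcription factor of blood stem cells and the erythroid lineage (1 of 5), and Slc4a1, the band 3 anion exchanger (1 of 1, scored 7.08). Of the 103 erythroid contacts 49 sat on the Car2 fragment, and of the 22 mast cell contacts 10 on the Il1rl1 fragment, so the intervals of both shares are too narrow. At scores of 7 to 10 only, which narrows the difference in score between the lists, the shares were 13 of 19 and 5 of 50. Contacts that only end in a listed gene are not in these counts. The Glyatl3 fragment, chr17:40909932-40916518, and a nearby one, chr17:40917631-40919526, each had 5 members of 5. All of these ended in Rhag, a gene of the erythroid list, 78.7 to 94.7 kb away. None had a listed contact within 10 kb in an erythroid list.

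The lists of megakaryocyte and platelet genes (18 of 51, 35.3%) and of granule and myeloid genes (24 of 71, 33.8%) each rested on 1 gene. Without Selp the first fell to 3 of 34 (8.82%), and without Hgf the second to 4 of 50 (8.0%). The megakaryocyte members outside Selp belonged to Gp1bb, a platelet receptor chain (2 of 15), and Itga2b, the platelet integrin (1 of 8). The granule members outside Hgf included Cd68, a macrophage lysosomal protein (2 of 2), and Elane, neutrophil elastase (1 of 7). Ccr2, a chemokine receptor of monocytes, had 0 of 22, and without Ccr2 the granule and myeloid share was 24 of 49 (49.0%). Adhesion and cytokine receptor genes had 33 of 87 (37.9%), and 18 of 70 (25.7%) without Selp. There Cxcr4, which holds progenitors in the marrow, had 2 of 13 and Itga4, an integrin chain, 2 of 6.

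Regulators of progenitors did not stand out. They had 19 members of 137 (13.9%, 8.56% to 20.8%), with 11 of 18 genes having at least 1. Hlf, a transcription factor of stem cells, led with 6 of 25, and its distal contacts numbered 46 in HPC, 21 in Ery Luc and 36 in Ery shStag2. Its strongest member, at 10.92 and 224 kb in Stxbp4, had 22 other listed contacts within 10 kb, summed over both erythroid lists. Myb and Mycn, transcription factors of proliferating progenitors, had 2 of 18 and 2 of 16, and Zfp36l2, an RNA-binding protein of progenitors, 2 of 30. Runx1 and Cd34 had 1 of 1 each. Runx1 was not depleted of contacts as a whole, with 4 distal contacts of any score in HPC, 11 in Ery Luc and 17 in Ery shStag2. For Cd34 these were 3, 1 and 0. Immediate-early genes had 16 of 143 (11.2%), with Egr3 at 6 of 12, Dusp6 at 3 of 15 and Jun at 2 of 16. Heme and iron genes had 14 of 87 (16.1%), of which Alad, an enzyme of heme synthesis, held 8 of 57 and Hmox1, heme oxygenase, 2 of 2. Lymphoid genes had 1 of 22, and 21 of these 22 contacts sat on the Ikzf1 fragment. Cohesin genes had 4 of 9 (44.4%, 13.7% to 78.8%), with Wapl at 2 of 3 and Stag1 at 1 of 1.

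**Figure D5:**
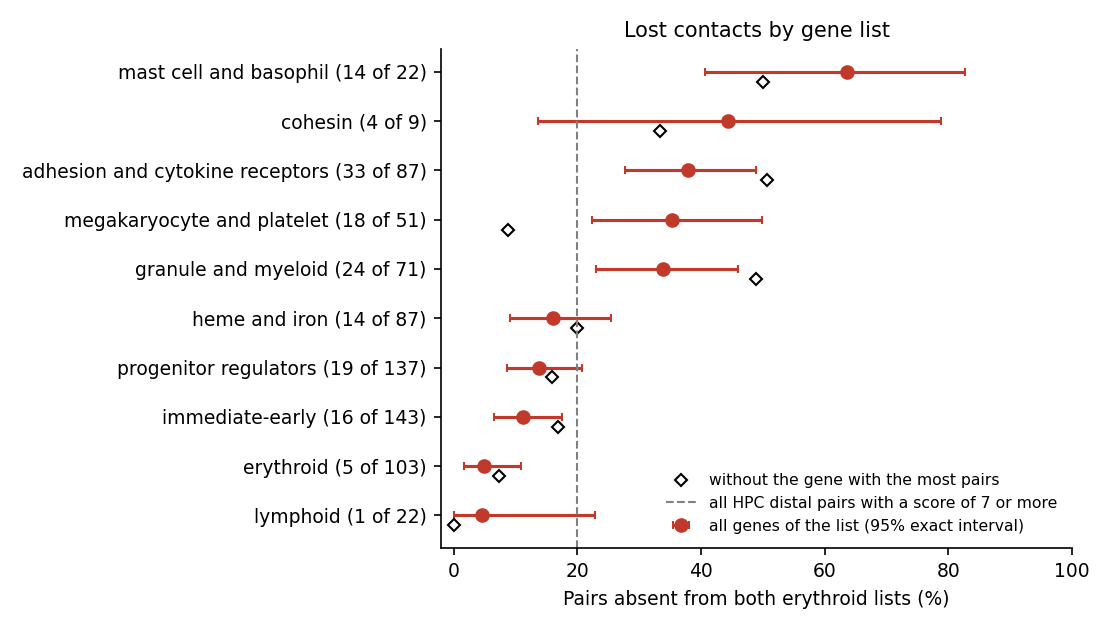
Share of qualifying HPC contacts that were members (x, %) for 10 gene lists, with exact binomial 95% intervals and counts in the labels. Diamonds leave out the gene with the most contacts, and the dashed line is the share over all contacts. In the granule and adhesion lists that gene is Ccr2, not Hgf or Selp. The mast cell list lies at 63.6% and the erythroid list at 4.85%.

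Contacts at the score limit differed little from each other. Just inside stood Col9a1, Catip and the fragment of Atg4b with Thap4, each at 7, and just outside Gas8, Hoatz and Dlg3, each at 6.99 and absent from both erythroid lists. There were 473 members at 7 to 7.1 and 465 contacts at 6.9 to 7 that met all other conditions.

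Promoters of members and of kept contacts held short motifs at shares whose intervals overlapped for each of 7 motifs. Matches were counted on both strands in the 300-base windows. The letters searched were AGATAA or TGATAA for the GATA motif, CCGGAAG for ETS, CAGCTG or CAGATG for the E-box and TGANTCA for AP-1. They were TGTGGTT for RUNX, CCACNAGG for CTCF and CCACACCC for KLF. A GATA match can overlap an E-box match, since CAGATG ends in the letters with which TGATAA begins. Of 802 promoters on fragments whose contacts were all members, 12.2% (98) held a GATA match. It was 10.1% (85) of 840 promoters whose contacts were all kept, and 15.9% of all 21263 promoters. E-box matches were in 26.3%, 24.8% and 27.9% of the same sets, ETS in 14.3%, 17.6% and 11.6%, AP-1 in 5.24%, 4.40% and 6.99%, and RUNX in 3.62%, 3.57% and 4.71%. CTCF matches were in 5.11%, 5.95% and 5.06%, and KLF in 3.37%, 3.57% and 3.63%. Median GC content was 59.3%, 60% and 56.3%.

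Among the promoters printed above, that of Cpa3 held a RUNX, an E-box and a GATA match, which begin 74, 59 and 46 bases before the start site. That of Il1rl1 held GATA matches that begin 217 and 80 bases before it, and that of Selp an AP-1 match 139 bases before it. The Hgf window held none, and neither did the window of its other annotated start. A match is a description of letters and no evidence of binding.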

How the data were processed

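The promoter capture Hi-C values are the authors' scores in 3 deposited lists, 1 per condition, each made by the authors from 2 pooled libraries. Per the labels' protocols, chromatin was cut with HindIII and promoters were enriched with SureSelect hybridisation. Fragments are on mm10, per the submitters' processing notes. Not given in the sources used here were the scoring software and the read depth. Every score was 5 or more. Fragment coordinates are 1-based.

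Pairs were matched between lists by exact fragment identity (Python 3.11.15, pandas 2.3.3, scipy 1.17.1), and the selection was checked on simulated lists. Captured fragments were named by a protein-coding start on them or, failing that, a start or end in RefSeq GRCm38.p6. Members and gene lists were chosen with earlier results of these data known. The named genes are the 12 fragments with most members, the 10 top scores (1 is not reported here), up to 5 genes per list, the contacts nearest the limit, 5 shared ends and the fragments with the highest member share. Other genes were named after their values were seen. RNA-seq counts of 15 libraries were not used, because their transcript identifiers could not be paired with genes by the reference tables, so the planned edgeR test was not run. Chromatin immunoprecipitation was not analysed here.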

Additional observations from a re-analysis of the deposited data

How the results depend on the processing

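The count of members rested on the score limit and on exact matching. With a limit of 5 it was 29858 (41.6% of distal HPC contacts), and with a limit of 10 it was 440 (4.72%). Counting only members with no listed contact within 10 kb in an erythroid list gave 1709 (6.02%), and asking for absence from Ery Luc alone gave 9144 (32.2%). Distances of 50 to 500 kb gave 5299. The share with a neighbour rose to 84.8% within 25 kb. The median distance was 203 kb at a limit of 10 and 166 kb for members with no neighbour within 10 kb, against 179 and 180 kb for kept contacts. Fragments with at least 80% members numbered 506 at a limit of 5 and 1 at a limit of 10. Of 10 gene lists 5 lay above the share of all contacts, and 4 at a limit of 5, where cohesin genes fell below it (40.6% against 41.6%). Under alternatives chosen after seeing the data, 3 lay above without Hgf and Selp, 4 without each list's gene with most contacts, and 5 at scores of 7 to 10, against a background of 27.6%. No paired analysis was possible because each list pools its libraries. Leaving out a replicate, read depth and the planned RNA alternatives could not be run for the same reason or for want of gene names.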
